A study of Mus musculus with 6 samples.

Results

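The genes described here are Myc and the genes of ribosome biogenesis, the nucleolar pathway that transcribes, modifies, cuts and assembles ribosomal RNA. The list named 53 genes, and a gene was kept where the array had a probe set assigned to its symbol alone, with the brightest over the 6 arrays used for genes with several. This left 50 of the 22180 genes tested: Myc, 7 genes of RNA polymerase I (Pol I) transcription, 7 of the small nucleolar ribonucleoproteins (snoRNPs), 3 that act at several nucleolar steps, 17 of the small subunit and 15 of the large subunit. Fbl, Tsr1 and Mrto4 dropped out, because the probe set of each was assigned to several symbols.

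Levels were measured on Affymetrix whole-transcript arrays in CD4+ T cells that had been taken from mouse spleen with magnetic beads. Every culture of the 3 groups was stimulated through CD3 and CD28 with antibody at 1 µg/ml, for 12 hours, so unstimulated cells are not among them. The control group was kept in control conditioned medium (ConCM), the second in medium conditioned by HEK-293 clones, a human embryonic kidney line, that overexpress the PlGF2 form of placental growth factor (PlGFCM), and the third in control medium to which 20 ng/ml of IL-6 had been added (IL6_ConCM). Serum was given as 10% for all 6 arrays. There were 2 arrays a group, and no source used here gives the strain, age or sex of the mice. PlGFCM is a medium made by engineered cells, so its values belong to the medium and not to purified PlGF.

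Myc is a transcription factor that pairs with Max and binds E-boxes, with CACGTG as the best known form, while proteins of the Mxd family compete with Myc for Max. Antigen receptor and CD28 signals induce Myc in T cells, and the growth that precedes division draws on Myc targets. Among these targets are the genes of ribosome biogenesis. Pol I makes 1 long precursor RNA, snoRNPs guide its methylation and pseudouridylation, and separate sets of assembly factors fold and cut the precursors of the small and the large subunit.

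The E-box was looked up in the promoters of these genes, taken from the RefSeq table for build GRCm38.p6, which gives 250 bases before to 50 bases after each gene's start. The table held promoters of 43 of the 50 genes, and Myc, Tcof1, Npm1, Rrp12, Bop1, Rrs1 and Gnl2 were without an entry. CACGTG, which reads the same on both strands, was present in 11 of 43 (25.6%, 95% Wilson interval 14.9 to 40.2) and in 2187 of the 27025 genes in the table (8.09%). By step, it was found in 2 of 6 Pol I genes, 0 of 7 snoRNP genes, 0 of 2 genes of several steps, 6 of 16 small-subunit genes and 3 of 12 large-subunit genes. Most of these matches lay after the start, and with the bases before the start alone 4 of 43 genes (9.3%) held the motif against 6.86% of all genes. A match is a string of letters and not a measured site of binding. The 4 E-box promoters shown belong to the genes with the smallest p in PlGFCM against ConCM among those holding the motif, with CACGTG in capitals and the rest of the window in lower case, 5′ to 3′ on the gene's strand.
Nop2, chr6:125131803-125131882, plus strand, with the motif 60 bases before the start: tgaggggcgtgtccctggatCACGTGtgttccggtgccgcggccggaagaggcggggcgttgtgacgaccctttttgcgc
Mybbp1a, chr11:72441347-72441376, plus strand, with the motif 40 bases after the start: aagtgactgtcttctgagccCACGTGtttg
Rrn3, chr16:13780464-13780698, plus strand, with motifs 215 and 48 bases before the start: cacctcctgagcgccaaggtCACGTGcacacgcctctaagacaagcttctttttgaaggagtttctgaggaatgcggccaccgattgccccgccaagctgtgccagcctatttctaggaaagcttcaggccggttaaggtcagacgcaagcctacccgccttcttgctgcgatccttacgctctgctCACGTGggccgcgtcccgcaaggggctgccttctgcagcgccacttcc
Utp20, chr10:88826765-88826794, minus strand, with the motif 37 bases after the start: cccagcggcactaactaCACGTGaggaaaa

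Facts that touch all results come first. Median log2 levels of the arrays ran from 5.47 to 5.51, and 2 arrays a group limit the precision of every value below. PlGFCM replicate 2 stood apart in Xist, at 8.38 against 3.58 to 3.95 on the other arrays, with the Y-linked Uty and Kdm5d at their lowest there (7.50 and 7.07). Of 11 listed T cell markers 9 were measured, and their summed linear level was 14247 to 15563 in ConCM, 15406 to 15575 in PlGFCM and 15050 to 16472 in IL6_ConCM. For the 10 measured B cell markers it was 1052 to 1062, 1011 to 1047 and 1021 to 1044, and for 12 myeloid markers 1140 to 1194, 1139 to 1229 and 1148 to 1178. The 10 CD8 T and NK cell markers summed to 852 to 912, 841 to 915 and 851 to 968. Single markers passed the test in PlGFCM: Ms4a1 and Fcer2a of B cells and Clec7a of myeloid cells fell, by 0.84, 0.86 and 0.60 on the log2 scale, and Gzma of cytotoxic cells rose by 0.93 (limma, adjusted p = 0.0125, 0.0206, 0.0383 and 0.0123). Gzma also rose in IL6_ConCM, by 1.12 (adjusted p = 0.00692). The lists as a whole did not follow these single genes: in PlGFCM 4 of 10 B cell markers were lower than in ConCM, with a median of 0.11, and 6 of 12 myeloid markers, with a median of 0.05. Among the myeloid markers, Cd14 had a difference of 0.67 (adjusted p = 0.0806). In total RNA of a population, fewer cells of a type and less RNA per cell cannot be told apart, and the part of other cells in the results below was not tested.

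The first comparison asked how CD4+ T cells differ between medium with PlGF and control medium. Myc and the ribosome biogenesis genes lay slightly lower in PlGFCM: 48 of 50 had a lower mean, where 53.6% of all genes did, and the median log2 difference was -0.22, a fold of 0.857, against -0.01 over all genes tested. The differences ran from -0.38 for Nat10, an RNA acetyltransferase of 18S rRNA, to 0.06 for Polr1c, a subunit that Pol I shares with Pol III. No gene passed the test: 0 of 50 had a limma adjusted p under 0.05, where 0.433% of all genes did, and the lowest, 0.175, belonged to Dkc1. At an unadjusted p under 0.05, 29 of 50 were lower and 0 higher, where 4.54% of all genes were lower and 4.19% higher. These 29 were Myc, 4 Pol I, 5 snoRNP, 3 several-step, 8 small-subunit and 8 large-subunit genes. Both PlGFCM arrays lay below both ConCM arrays for 43 of the 50, where 20.9% of all genes did, and the 1 gene with both above was Polr1c, where 17.3% of all genes did.

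The size of the difference depended on ConCM replicate 1. Without it the median was -0.16, with 47 genes lower and 6 at an unadjusted p under 0.05, where 2.75% of all genes were. Without ConCM replicate 2 it was -0.31, with 39 at that p against 4.99% of all genes. Leaving out either PlGFCM array gave -0.24 or -0.23, the second being without the array with high Xist, with 21 and 15 genes at that p against 4.25% and 4.86% of all genes. The adjusted p of the lowest gene was 0.124 to 0.357 over these fits and those without an IL6_ConCM array.

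**Figure D1:**
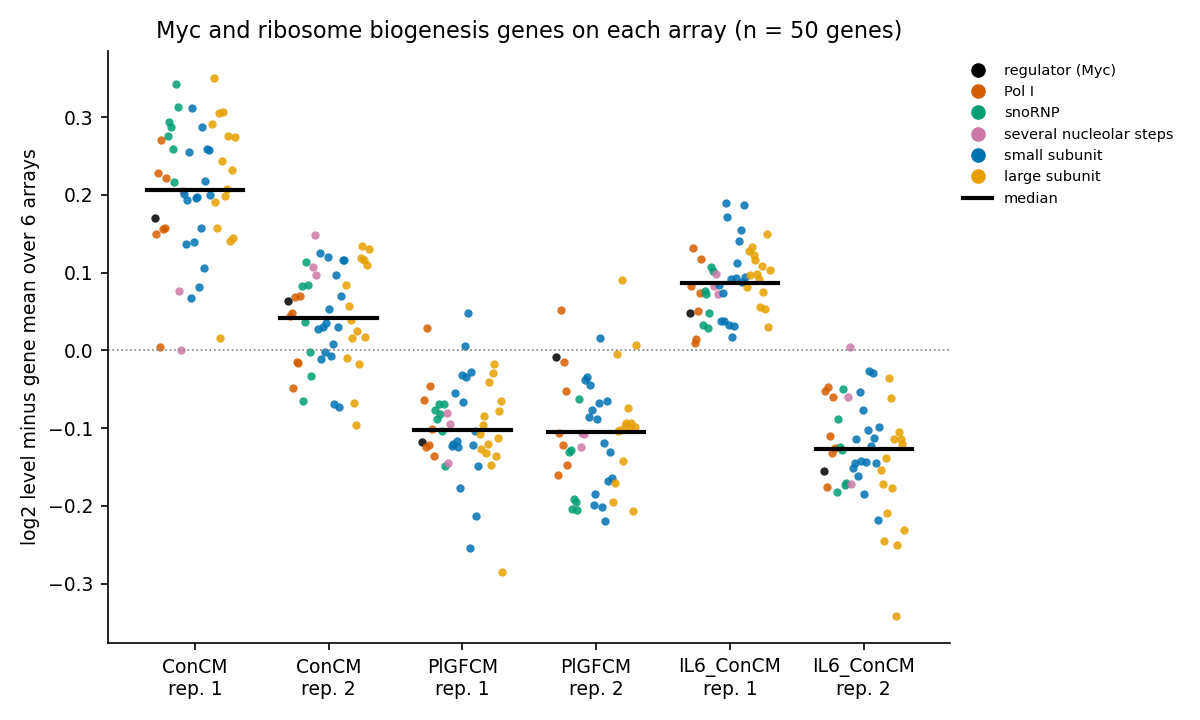
Log2 level of each of the 50 genes on each of the 6 arrays, minus that gene's mean over the 6 arrays, coloured by step, with the median of the 50 as a bar. The medians were 0.21 and 0.04 on the ConCM arrays, -0.10 and -0.11 on the PlGFCM arrays, and 0.09 and -0.13 on the IL6_ConCM arrays, so ConCM replicate 1 lies highest and the IL6_ConCM arrays lie apart.

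The plot of levels by array shows that replicates of a group differed as well. ConCM replicate 1 was the highest array for 44 of the 50 genes, and the lowest array was IL6_ConCM replicate 2 for 23 and PlGFCM replicate 2 for 17. Replicate 1 minus replicate 2 had a median over the genes of 0.16 in ConCM, with 48 of 50 higher in replicate 1, and of 0.20 in IL6_ConCM, with 50 of 50 higher. In PlGFCM it was 0.01, with 27 of 50 higher. Over all genes tested these medians were 0.02 in ConCM, -0.0048 in IL6_ConCM and 0.01 in PlGFCM. In ConCM and IL6_ConCM the shift between the arrays of a group was thus about as large as the differences between groups. T cell markers moved in the same direction between these replicates, by a median of 0.13 in ConCM (8 of 9 higher in replicate 1) and 0.12 in IL6_ConCM (9 of 9). Between groups, 2 of 9 T cell markers were lower in PlGFCM than in ConCM, with a median log2 difference of 0.06. In IL6_ConCM 1 of 9 was lower than in ConCM, with a median of 0.10. The part of the T cell markers in the shift was not tested.

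Myc itself was among the brighter transcripts. Its log2 levels were 11.16 and 11.05 (ConCM), 10.87 and 10.98 (PlGFCM) and 11.03 and 10.83 (IL6_ConCM). Both ConCM arrays were above all others, and the PlGFCM and IL6_ConCM arrays overlapped. The log2 difference of PlGFCM from ConCM was -0.18 (95% interval -0.35 to -0.01, limma adjusted p = 0.531), and that of IL6_ConCM from ConCM was -0.17 (-0.34 to -0.0019, adjusted p = 0.885).

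Among the Pol I genes, 6 of 7 were lower in PlGFCM than in ConCM, with a median log2 difference of -0.21. Rrn3 encodes TIF-IA, which brings Pol I to the rDNA promoter, and its promoter holds the E-box at 2 places. Its levels were 9.16 and 8.96 on the ConCM arrays, 8.77 and 8.77 on those of PlGFCM, and 8.91 and 8.78 on those of IL6_ConCM. Both ConCM arrays were highest and the PlGFCM arrays lowest, with a log2 difference of -0.29 ± 0.09 (SE, n = 2 and 2 arrays, limma adjusted p = 0.309). Mybbp1a, a nucleolar Myb-binding protein linked to Pol I, had 10.74 and 10.58 in ConCM, 10.38 and 10.37 in PlGFCM, then 10.63 and 10.39 in IL6_ConCM. Its IL6_ConCM arrays were split, with replicate 1 among the ConCM arrays and replicate 2 beside the PlGFCM arrays. Polr1a, the largest subunit of Pol I, had 8.88 and 8.77 (ConCM), 8.66 and 8.57 (PlGFCM) and 8.81 and 8.67 (IL6_ConCM). Here too both PlGFCM arrays were the lowest. The other members were Polr1b at -0.25, the treacle gene Tcof1 at -0.15, the rDNA-binding factor Ubtf at -0.10 and Polr1c at 0.06, none past the test.

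The snoRNP genes had the lowest median of the steps in PlGFCM against ConCM, -0.30, with all 7 between -0.32 and -0.22, but no test compared the steps with each other. Both the value and the rank rested on ConCM replicate 1: without it the snoRNP median was -0.17 and the lowest step was that of the 3 genes of several steps, at -0.21. Dkc1 encodes dyskerin, the pseudouridine synthase of box H/ACA snoRNPs. Its levels were 10.32 and 10.17 on the ConCM arrays, 9.98 and 9.87 on those of PlGFCM, and 10.09 and 9.93 on those of IL6_ConCM. Both ConCM arrays exceeded the other 4, and the log2 difference of PlGFCM was -0.32 ± 0.08 (SE, limma adjusted p = 0.175). Gar1, another protein of box H/ACA particles, had 8.03 and 7.90 in ConCM, 7.71 and 7.62 in PlGFCM, then 7.86 and 7.77 in IL6_ConCM, the 3 groups following each other without overlap. Nop56, a core protein of box C/D snoRNPs that guide methylation, had 11.08 and 10.89 (ConCM), 10.73 and 10.68 (PlGFCM) and 10.84 and 10.63 (IL6_ConCM). For Nop56 the ConCM arrays were highest, while PlGFCM and IL6_ConCM overlapped. Nop56 has 3 probe sets of its own, and with their mean in place of the brightest its log2 difference from ConCM moved from -0.28 to -0.11 in PlGFCM (limma adjusted p = 0.820) and from -0.25 to -0.12 in IL6_ConCM (adjusted p = 0.992). Npm1, Ddx21, Ddx18 and Rrs1, of other steps, have 2 probe sets each. With the mean of all probe sets, 26 of the 50 genes were lower in PlGFCM at an unadjusted p under 0.05 (4.51% of all genes). In IL6_ConCM 8 were (2.96% of all genes), against 29 and 11 with the brightest. None of the 7 snoRNP promoters held CACGTG.

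Nucleolin (Ncl), nucleophosmin (Npm1) and the helicase Ddx21 are abundant nucleolar proteins with roles at several steps. Npm1 had 11.43 and 11.57 on the ConCM arrays, 11.28 and 11.32 on those of PlGFCM, and 11.52 and 11.43 on those of IL6_ConCM. PlGFCM was lowest and the other groups overlapped, so the difference from ConCM was -0.20 in PlGFCM and -0.02 in IL6_ConCM. Ncl had 11.26 and 11.29 in ConCM, 11.10 and 11.06 in PlGFCM, then 11.27 and 11.12 in IL6_ConCM, again with PlGFCM lowest and overlap between the others. Ddx21 had 10.51 and 10.40 (ConCM), 10.21 and 10.20 (PlGFCM) and 10.38 and 10.13 (IL6_ConCM). Its lowest array was IL6_ConCM replicate 2, and both ConCM arrays were highest. The limma adjusted p of PlGFCM against ConCM was 0.334 for Npm1, 0.337 for Ncl and 0.353 for Ddx21.

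All 17 small-subunit genes had a lower mean in PlGFCM than in ConCM, from -0.38 to -0.05 with a median of -0.20. Nob1 encodes the endonuclease that makes the 3′ end of 18S rRNA. Its levels were 9.53 and 9.45 on the ConCM arrays, 9.18 and 9.17 on those of PlGFCM, and 9.43 and 9.23 on those of IL6_ConCM, with the 3 groups apart and PlGFCM lowest. The log2 difference of Nob1 from ConCM was -0.31 ± 0.08 (SE, limma adjusted p = 0.208). Nat10 had 9.03 and 8.84 in ConCM, 8.49 and 8.63 in PlGFCM, then 8.86 and 8.62 in IL6_ConCM. Its IL6_ConCM arrays overlapped both other groups, and PlGFCM differed from ConCM by -0.38 ± 0.10 (SE, adjusted p = 0.231). Utp15 and Wdr75 belong to the t-UTP group, which links the small-subunit processome to Pol I transcription. Utp15 had 9.22 and 9.21 (ConCM), 8.96 and 9.05 (PlGFCM) and 9.12 and 8.94 (IL6_ConCM). Wdr75 had 9.84 and 9.61, 9.47 and 9.54, and 9.62 and 9.42 in the same order of groups. For both genes the PlGFCM arrays lay below the ConCM arrays and overlapped those of IL6_ConCM. Rrp12, an export factor of pre-ribosomes, had 8.50 and 8.42 on the ConCM arrays, 8.36 and 8.17 on those of PlGFCM, and 8.53 and 8.36 on those of IL6_ConCM, with its highest array in IL6_ConCM. Utp20, a processome protein, and Pno1, a small-subunit assembly factor, each had a log2 difference of -0.36 from ConCM with wide intervals (-0.62 to -0.10 and -0.62 to -0.09). The methyltransferase Emg1 was nearest to 0, at -0.05.

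Of the 15 large-subunit genes, 14 were lower in PlGFCM than in ConCM, with a median log2 difference of -0.23. Nop2, a methyltransferase of 28S rRNA, had 10.24 and 10.04 in ConCM, 9.85 and 9.76 in PlGFCM, then 10.03 and 9.80 in IL6_ConCM. ConCM was highest on both arrays and IL6_ConCM replicate 1 came next, and the log2 difference of PlGFCM was -0.34 ± 0.09 (SE, limma adjusted p = 0.237). Noc2l, which forms assembly complexes with Noc3l, had 10.58 and 10.55 (ConCM), 10.32 and 10.34 (PlGFCM) and 10.49 and 10.33 (IL6_ConCM). Noc3l had 8.98 and 8.76 on the ConCM arrays, 8.67 and 8.54 on those of PlGFCM, and 8.90 and 8.63 on those of IL6_ConCM. For both, the PlGFCM arrays were below the ConCM arrays, and 1 IL6_ConCM array lay among those of PlGFCM. Ftsj3, an rRNA methyltransferase, had 9.75 and 9.61 in ConCM, 9.34 and 9.37 in PlGFCM, then 9.55 and 9.22 in IL6_ConCM. The helicase gene Ddx18 had 10.05 and 10.01, 9.84 and 9.80, and 9.93 and 9.78 in the same order of groups. In Ftsj3 and Ddx18 the lowest array was IL6_ConCM replicate 2. The members of the PeBoW complex, which acts in 28S rRNA maturation, had log2 differences of -0.19 (Pes1), -0.17 (Bop1) and -0.28 (Wdr12). Rrp1b was the exception at 0.01, with 8.67 and 8.59 in ConCM and 8.53 and 8.74 in PlGFCM, so that its PlGFCM arrays spanned the ConCM arrays.

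**Figure D2:**
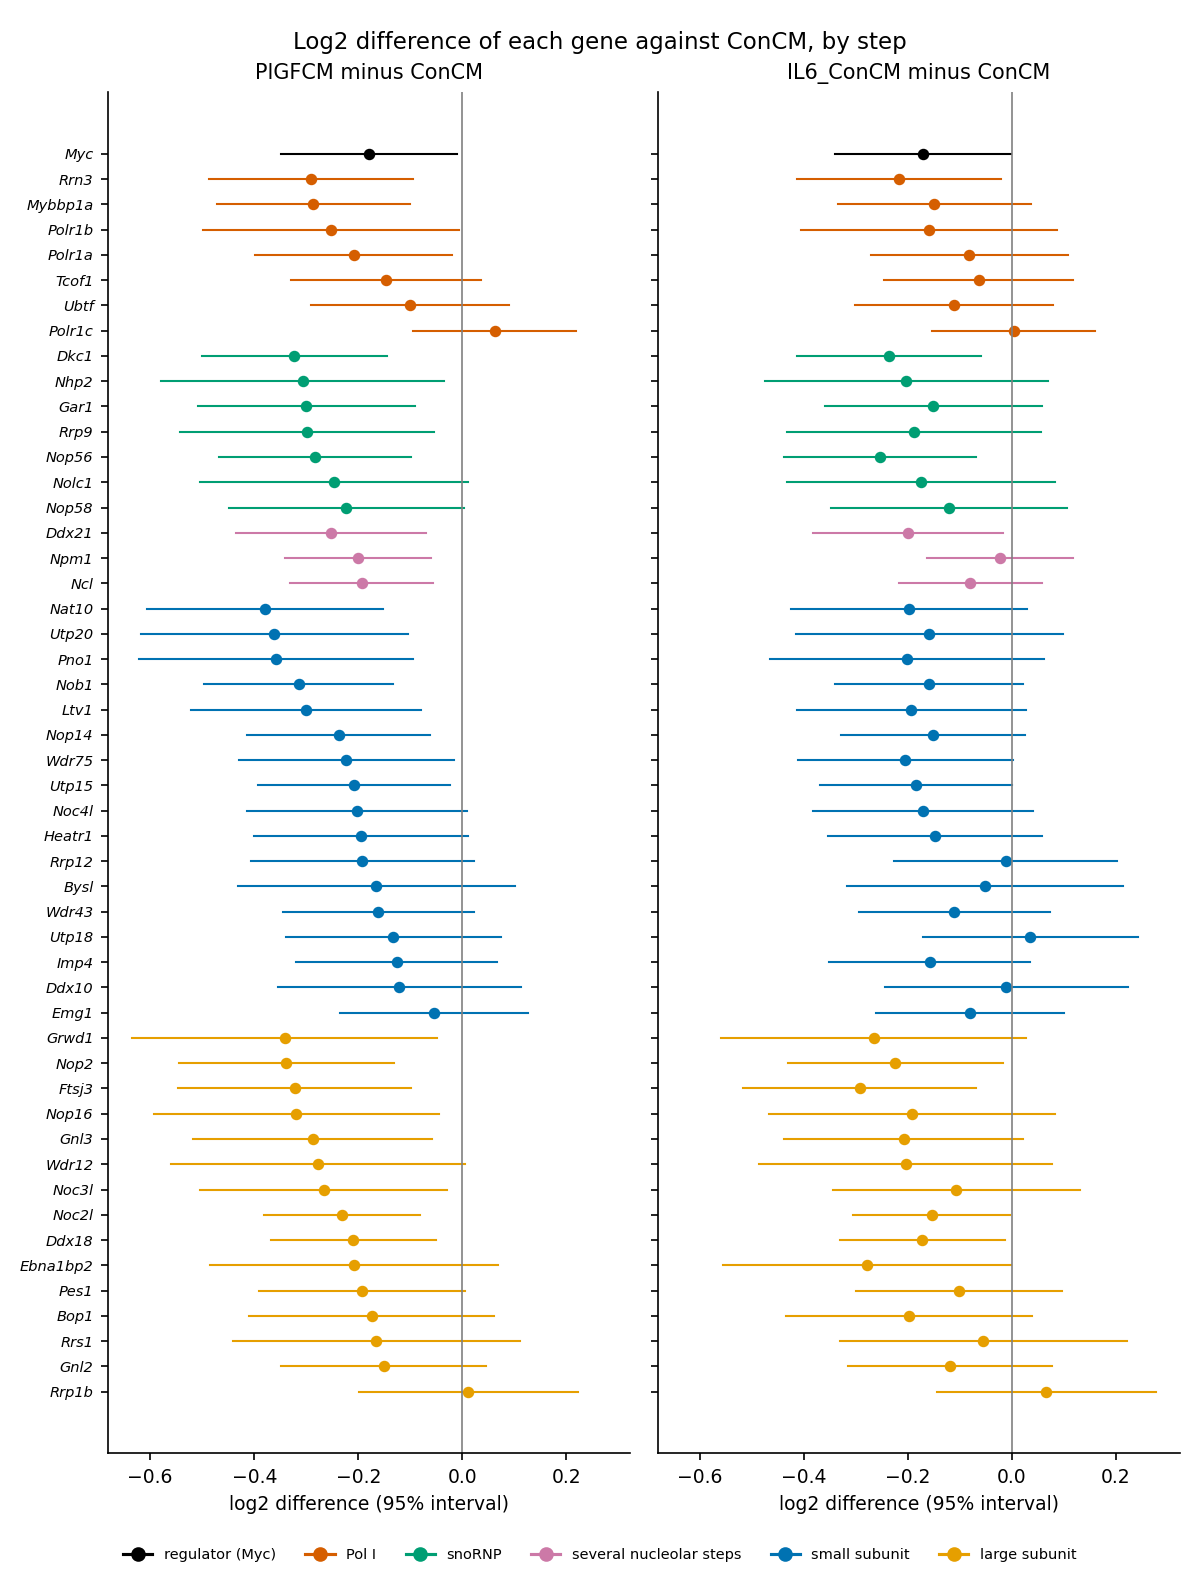
Log2 difference (x axis) of each of the 50 genes in PlGFCM (left) and IL6_ConCM (right) from ConCM, ordered by step and by the difference in PlGFCM, with limma's unadjusted 95% interval as a line. Points lie left of 0 for 48 of 50 genes on the left and 47 of 50 on the right, and none passed at an adjusted p under 0.05. The ConCM arrays are shared by both panels.

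The second comparison asked what IL-6 added to control medium did. The same genes lay lower in IL6_ConCM, by less: 47 of 50 had a lower mean, where 53.1% of all genes did, with a median log2 difference of -0.16, a fold of 0.895, and a range from -0.29 for Ftsj3 to 0.07 for Rrp1b. The exceptions were Polr1c (0.00), Utp18 (0.04) and Rrp1b. None of the 50 passed the test, where 0.113% of all genes did, and the lowest limma adjusted p was 0.642, for Nop56. At an unadjusted p under 0.05, 11 were lower and 0 higher, where 3% of all genes were lower and 2.62% higher. Both IL6_ConCM arrays lay below both ConCM arrays for 15 of 50, where 18.4% of all genes did.

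By step, the median log2 differences of IL6_ConCM from ConCM were -0.11 for Pol I genes, -0.19 for snoRNP genes, -0.08 for the 3 genes of several steps, -0.16 for the small subunit and -0.19 for the large subunit. Among the genes with the smallest p were Rrn3, at -0.22, and the snoRNP genes Nop56 and Dkc1, at -0.25 and -0.24. In the subunit steps they were Utp15 at -0.18 and Wdr75 at -0.20 (small subunit) and Ftsj3 at -0.29 and Ddx18 at -0.17 (large subunit). Array values of these genes are given above, and IL6_ConCM replicate 2 was the lower of its pair for each. The whole shift depended on single arrays. Without IL6_ConCM replicate 2 the median was -0.04 with 38 genes lower, and without ConCM replicate 1 it was -0.07 with 40 lower, each with 0 genes at an unadjusted p under 0.05, where 2.42% and 2.19% of all genes were. Without IL6_ConCM replicate 1 it was -0.27, with 50 lower and 31 at that p (3.86% of all genes), and without ConCM replicate 2 it was -0.23, with 22 at that p (3.38%). The 15 genes whose arrays did not overlap became 45 without IL6_ConCM replicate 1 and 44 without ConCM replicate 2, where 35.2% and 38% of all genes did. They were 17 without ConCM replicate 1 and 15 without IL6_ConCM replicate 2, where 33.1% and 35.7% of all genes did.

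The third comparison set PlGFCM against IL6_ConCM directly. The median log2 difference was -0.08, a fold of 0.943, and 44 of 50 genes were lower in PlGFCM, where 50.9% of all genes were. None passed the test, where 0.0316% of all genes did, and the lowest limma adjusted p was 0.998. The 1 gene at an unadjusted p under 0.05 was Npm1, at -0.18 ± 0.06 (SE), where 1.81% of all genes were lower and 2.56% higher at that p. PlGFCM arrays lay below those of IL6_ConCM for 10 of the 50, where 14.9% of all genes did: Polr1a, Rrn3, Mybbp1a, Nop58, Gar1, Ncl, Npm1, Utp18, Utp20 and Nob1. Polr1c alone lay above them, where 15.2% of all genes did. Medians by step ran from -0.11 for the small subunit and the genes of several steps to -0.08 for Pol I and large-subunit genes, and Myc differed by -0.01 (95% interval -0.18 to 0.16). The direction turned on 1 array: without IL6_ConCM replicate 1 the median was 0.03 and 19 of 50 were lower, and without IL6_ConCM replicate 2 it was -0.19 with 49 lower and 12 at an unadjusted p under 0.05, where 2.27% of all genes were.

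The partners and competitors of Myc were followed as a list of 12 measured genes of the Max network. In PlGFCM against ConCM 1 of the 12 passed the test, where 0.433% of all genes did, and in the other comparisons none did. At an unadjusted p under 0.05, 1 was lower and 2 higher in PlGFCM than in ConCM, where 4.54% and 4.19% of all genes were. Mxd1, which pairs with Max and represses E-box genes, rose in PlGFCM. Its log2 levels were 10.55 and 10.43 (ConCM), 11.02 and 11.13 (PlGFCM) and 10.77 and 10.77 (IL6_ConCM). The 3 groups did not overlap, with PlGFCM highest and IL6_ConCM between, and the log2 difference from ConCM was 0.59 ± 0.07 in PlGFCM (SE, limma adjusted p = 0.00436) and 0.28 ± 0.07 in IL6_ConCM (adjusted p = 0.248). Without PlGFCM replicate 2 the difference was 0.53 and no longer passed (adjusted p = 0.104), and an empirical Bayes fit without an intensity trend gave an adjusted p of 0.239. Between PlGFCM and IL6_ConCM, Mxd1 differed by 0.31 (adjusted p = 0.271).

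Max had 10.11 and 10.10 on the ConCM arrays, 9.95 and 9.92 on those of PlGFCM, and 9.95 and 9.78 on those of IL6_ConCM. Both ConCM arrays were highest, with log2 differences of -0.17 in PlGFCM (limma adjusted p = 0.549) and -0.24 in IL6_ConCM (adjusted p = 0.556). Mxd4, another competitor for Max, had a difference of 0.39 in PlGFCM (adjusted p = 0.444). The median of the network in PlGFCM against ConCM was 0.08, and -0.04 without ConCM replicate 1.

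**Figure D3:**
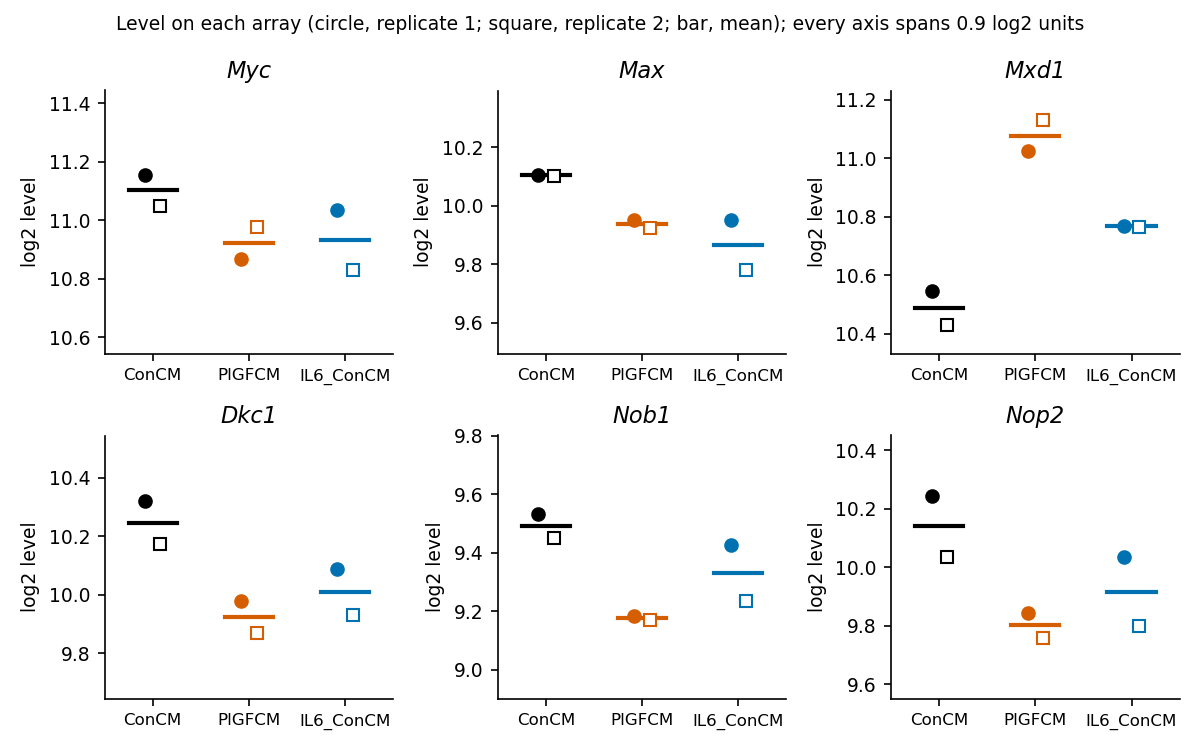
Log2 level on each array of Myc, Max, Mxd1, Dkc1, Nob1 and Nop2, with replicate 1 as a circle, replicate 2 as a square and the group mean as a bar. Axes start at different levels but all span the same range, and Mxd1 is highest in PlGFCM while the other 5 genes are highest in ConCM.

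Further genes of ribosome biogenesis outside the 50 shared the direction with smaller medians. In PlGFCM against ConCM, 10 of 14 other Pol I genes were lower, with a median log2 difference of -0.12, as were 10 of 11 other snoRNP and assembly genes at -0.15. All 31 other small-subunit genes were lower at -0.17, 40 of 42 other large-subunit genes at -0.15 and 11 of 12 exosome genes, which trim pre-rRNA, at -0.15. None of the genes of these 5 lists passed limma's test, and 1, 3, 7, 13 and 2 of them were lower at an unadjusted p under 0.05, where 4.54% of all genes were. Without ConCM replicate 1 the medians were nearer to 0, at -0.11, -0.08, -0.09, -0.08 and -0.08, with 10 of 14, 8 of 11, 27 of 31, 34 of 42 and 11 of 12 lower. The smallest p among them belonged to Urb2, a large-subunit factor, with 9.99 and 10.05 in ConCM, 9.75 and 9.70 in PlGFCM, then 9.87 and 9.70 in IL6_ConCM (log2 difference of PlGFCM from ConCM -0.30, limma adjusted p = 0.188). Rpf2, which brings the 5S particle into the large subunit, followed at -0.42 (adjusted p = 0.216). In IL6_ConCM against ConCM the same lists had medians of -0.04, -0.09, -0.11, -0.12 and -0.11, with none past the test. At an unadjusted p under 0.05, 0, 1, 1, 2 and 0 were lower, where 3% of all genes were. Without IL6_ConCM replicate 2 these medians were 0.05, -0.008, -0.008, -0.03 and -0.01. Without ConCM replicate 1 they were 0.02, -0.04, -0.04, -0.03 and -0.03.

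Myc targets outside the nucleolus lay lower than in ConCM too, in PlGFCM and in IL6_ConCM. Medians of ribosomal proteins and Pol III genes were between -0.06 and -0.01. Of 28 other Myc targets, 26 were lower in PlGFCM than in ConCM with a median log2 difference of -0.23. The 2 with the smallest p were Mthfd2, a mitochondrial enzyme of folate metabolism, at -0.47 (limma adjusted p = 0.0728), and Srm, the spermidine synthase, at -0.46 (adjusted p = 0.0853). Srm had 10.87 and 10.62 (ConCM), 10.29 and 10.28 (PlGFCM) and 10.65 and 10.38 (IL6_ConCM), with the PlGFCM arrays lowest and overlap between the other groups. In IL6_ConCM, 26 of the 28 Myc targets were lower than in ConCM as well, with a median of -0.15. This median was -0.06 without IL6_ConCM replicate 2 and -0.10 without ConCM replicate 1. With all arrays, 8 of the 28 were lower there at an unadjusted p under 0.05, where 3% of all genes were. The 32 cytosolic ribosomal proteins had a median of -0.03 in PlGFCM and -0.01 in IL6_ConCM, and the 18 Pol III genes of -0.06 and -0.03. Without ConCM replicate 1 the Pol III median in PlGFCM was 0.02. Medians of 11 genes of mTORC1 and growth control were -0.04 and -0.01, and those of 11 genes of the p53 response, which answers nucleolar stress, were 0.01 and -0.04. The p53 target nearest to the threshold was Trp53inp1, with 9.69 and 9.70 on the ConCM arrays, 10.06 and 10.08 on those of PlGFCM, and 9.72 and 9.87 on those of IL6_ConCM (log2 difference of PlGFCM from ConCM 0.37, adjusted p = 0.0572). At an unadjusted p under 0.05, 15 of the 28 Myc targets, 2 of the 32 ribosomal proteins, 4 of the 18 Pol III genes and 0 of the 11 mTORC1 genes were lower in PlGFCM than in ConCM, where 4.54% of all genes were. For the ribosomal proteins that is 6.25% and for the Pol III genes 22.2%. The 2 ribosomal proteins were Rps15 and Rpl30, with mean log2 levels of 4.88 and 5.39 in ConCM, where the ConCM arrays had a median of 5.48. Rplp1 had 12.19 there. Probe sets that read so low may not follow these transcripts, so the median of the ribosomal proteins is a limited measure of them. Of the 11 genes of the p53 list, 1 was lower and 2 higher at that p, where 4.54% and 4.19% of all genes were. No gene of these lists passed limma's adjusted threshold in any of the 3 comparisons with all arrays. In PlGFCM against ConCM, this did not hold for the Myc targets and the p53 list when either IL6_ConCM array was left out. Differences between lists were not tested.

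**Figure D4:**
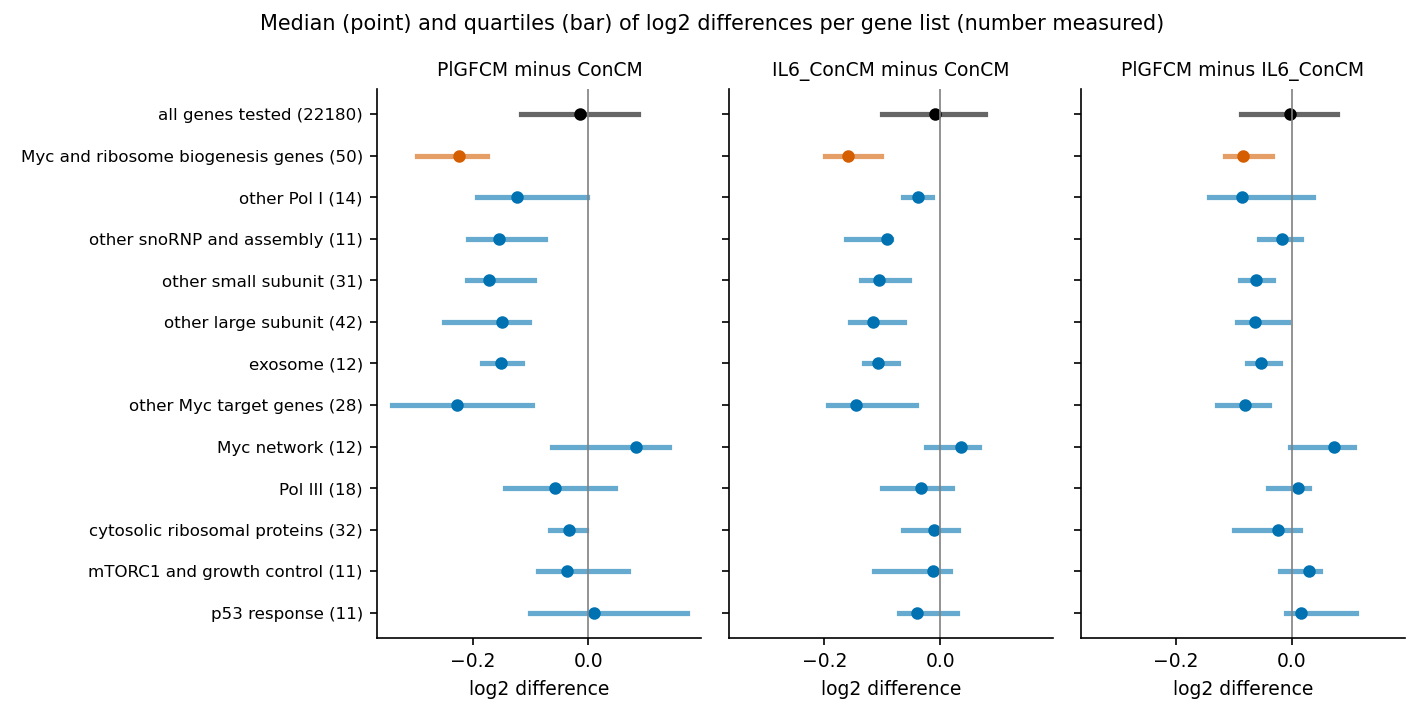
Median (point) and quartiles (bar) of the log2 differences of each gene list in the 3 comparisons, with the number of genes measured in parentheses. In PlGFCM minus ConCM the medians are -0.22 for Myc and the ribosome biogenesis genes, -0.23 for other Myc targets, -0.03 for cytosolic ribosomal proteins and -0.01 for all genes tested. Some ribosomal proteins had mean levels below the median of the arrays.

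The genes of the list are well above the middle of the array's range. Their mean log2 levels lay between the 70.1st and the 99.4th percentile of all genes tested, from Rrs1 to Npm1. Among the 2218 genes at or above the 90th percentile, 28 of them from the list, the median log2 difference of PlGFCM from ConCM was 0.01, with 47.7% lower and 10.2% lower at an unadjusted p under 0.05. Among the 5545 genes at or above the 75th percentile these shares were 46.7% and 8.08%.

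Genes with and without an E-box match had similar medians, with no test of the difference. In PlGFCM against ConCM the median log2 difference was -0.29 for the 11 genes whose promoter held CACGTG and -0.23 for the 32 whose promoter did not. In IL6_ConCM against ConCM the medians were -0.16 and -0.17, and in PlGFCM against IL6_ConCM -0.11 and -0.08. Of the promoters printed above, that of Nop2 belongs to a gene with a difference of -0.34 in PlGFCM, that of Utp20 to one with -0.36, and those of Rrn3 and Mybbp1a to genes with -0.29 each. The 7 snoRNP genes, with no such match, lay between -0.32 and -0.22. Beside the 8.09% of all genes, the motif was found in 11 of 25 promoters of other Myc targets (44%), 5 of 10 of the p53 list (50%), 4 of 12 of the Max network (33.3%) and 3 of 13 of Pol III (23.1%). It was in 1 of 10 of the mTORC1 list (10%) and 2 of 29 of the cytosolic ribosomal proteins (6.9%). In the other lists of ribosome biogenesis it was in 2 of 14 (Pol I), 0 of 8 (snoRNP and assembly), 6 of 24 (small subunit), 7 of 38 (large subunit) and 1 of 12 (exosome).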

How the data were processed

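The submitters' processing notes name Transcriptome Analysis Console, with which the authors made the deposited log2 levels per probe set. Its version, background correction, normalization and build are not given here, and that the levels are log2 was read from their range. They were not normalized again. Of 41345 probe sets, 23521 had 1 symbol in the platform annotation, 1814 had several and 16010 were unnamed. All 22180 genes were fitted with limma 3.58.1 in R 4.3.3 (lmFit and eBayes with an intensity trend, 6 arrays, 3 residual degrees of freedom, median prior 8.14), and p-values were Benjamini-Hochberg adjusted over all of them. A gene rose or fell where this was under 0.05. The fit was tested on simulated data. Whether replicates are separate animals or cultures is not stated, so the spread behind the p-values may be technical, at least in ConCM and IL6_ConCM. The PlGFCM arrays differed in Xist, at 3.58 and 8.38, and so do not read like repeats of 1 RNA sample. Whether they differ in animals or in the sex of the cells was not tested. With 2 arrays against 2, an exact permutation test cannot go below a two-sided p of 1 in 3. The members, lists and tests were chosen with earlier results of these data known. Every member could be named, with array values for Myc and, per step and comparison, the 2 with the smallest p. Other lists were named by members past the threshold, by up to 2 with the smallest p, and by Max. Alternatives were other normalizations, filters, priors, the mean of all probe sets of a gene, array weights, fits of only the groups compared, the replicate block and each array left out.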

Additional observations from a re-analysis of the deposited data

How the results depend on the processing

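No gene of the 50 passed in any comparison or alternative, with a lowest limma adjusted p of 0.0808 to 0.578 in PlGFCM against ConCM, 0.179 to 1.00 in IL6_ConCM against ConCM and 0.680 to 1.00 in PlGFCM against IL6_ConCM. Counts over all genes moved more. The 96 genes of PlGFCM against ConCM became 174 with genes above the median level alone and 6 without an intensity trend, and 12 to 107 with 1 array left out. The 25 of IL6_ConCM against ConCM became 53 with either filter on low levels, 1 without a trend, 12 with the compared groups alone, 47 with array weights, and 2 to 41 with 1 array left out. The 7 of PlGFCM against IL6_ConCM became 0 without a trend, where 0 to 5 were called with 1 array left out. With 1 array left out, the median over the 50 genes ran from -0.31 to -0.16 in PlGFCM against ConCM, from -0.27 to -0.038 in IL6_ConCM against ConCM and from -0.19 to 0.029 in PlGFCM against IL6_ConCM. In the last comparison the sign turned without IL6_ConCM replicate 1 for the small-subunit median (0.020, in a range down to -0.17), the large-subunit median (0.045), Nop2 (0.0032) and Myc (0.092). It turned for Myc also without PlGFCM replicate 1 (0.05, in a range down to -0.11), and for Max without IL6_ConCM replicate 2 (-0.013, in a range up to 0.16). The share of promoters with the E-box was 9.3% before the start alone and 60.5% when CATGTG and CACGCG were counted too, where 30.9% of all genes held one. With quantile normalization the medians were -0.23, -0.16 and -0.10.

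The replicate number was fitted as a block as well. Same-numbered arrays correlated at -0.04 (ConCM with PlGFCM), 0.11 (ConCM with IL6_ConCM) and 0.03 (PlGFCM with IL6_ConCM) in their deviations from the group means, which is not over 0.1 in every pair. The labels give no link between arrays of the same number, so the numbers were not taken as pairs. The block gave 62, 16 and 5 genes in the 3 comparisons. Every group has 1 array of each number, so a block cannot change the differences between groups. The medians over the 50 genes therefore stayed at -0.22, -0.16 and -0.08. At an unadjusted p under 0.05, 36 of the 50 were lower in PlGFCM and 15 in IL6_ConCM than in ConCM, where 5.42% and 3.5% of all genes were. Without the block these counts were 29 and 11.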

Other observations

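The RNAs and host genes of the snoRNP step were looked at after the data had been seen. Their medians and counts were not computed with single arrays left out. The table held 73 small nucleolar RNAs of the Snord and Snora families. In PlGFCM against ConCM, 39 of 73 were lower, where 53.6% of all genes were, and the median log2 difference was -0.0008, beside -0.30 for the 7 snoRNP protein genes. In IL6_ConCM against ConCM, 54 were lower with a median of -0.06, where 53.1% of all genes were lower. In PlGFCM against IL6_ConCM 59 were higher and 14 lower with a median of 0.06, where 50.9% of all genes were lower. None passed limma's test at an adjusted p under 0.05, and at an unadjusted p under 0.05 the counts were 1 lower and 1 higher (4.54% and 4.19% of all genes), 3 lower (3% of all genes) and 4 higher (2.56% of all genes) in these comparisons. Of 15 host genes (Snhg genes and Gas5), whose introns hold snoRNAs, 12 were lower in PlGFCM and 13 in IL6_ConCM than in ConCM, with medians of -0.11 and -0.15, and none passed (2 and 1 lower at an unadjusted p under 0.05, where 4.54% and 3% of all genes were).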
